A study of Mus musculus with 6 samples.

Results

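The hnRNP and SR splicing proteins were taken as every protein-coding gene whose symbol starts with Hnrnp or with Srsf followed by a number, which gave 31 genes, 20 Hnrnp and 11 Srsf, of the 35082 genes to which transcripts were assigned. The libraries came from whole livers of 6 male mice that were given a high-fat diet from 8 weeks of age for 20 weeks. The 3 control livers had the genotype G3BP1f/f (floxed G3bp1 with no Cre), and the 3 knockout livers the genotype Alb-cre; G3BP1f/f, in which Cre driven by the albumin promoter is meant to delete G3bp1 in hepatocytes and not in the other cells of the liver. The library names of the controls carry C57, the name of a common laboratory background, although their genotype label is the floxed one. By their labels both groups had the floxed alleles and the diet, so no liver labelled with a standard diet or with Cre alone enters the comparison. Poly(A) RNA was sequenced in pairs of reads, and the estimated counts summed to 20899135 to 21750007 per library.

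SR proteins bind exons through RNA-recognition motifs and recruit the spliceosome through domains rich in arginine and serine, whereas hnRNP proteins coat nascent RNA and often oppose the use of nearby splice sites. Many genes of both families limit their own output: their RNA can include a poison exon, which carries a premature stop codon and sends the transcript to nonsense-mediated decay, or can keep an intron and stay in the nucleus. In mouse liver, Srsf3 is known to be needed for hepatocytes to mature and to handle lipid and glucose. G3bp1 encodes a protein that binds RNA and starts the assembly of stress granules.

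The following sequences belong to the transcripts on which the later values turn, with positions on GRCm38 and letters read 5′ to 3′ on the strand of the gene from the GENCODE M21 transcripts. The first 2 end poison exons at the premature stop codon, which is in capitals. The Srsf3 stretch starts with the exon of 456 bases that distinguishes Srsf3-201 from the coding transcript Srsf3-202, and its stop lies 548 bases upstream of the last exon junction. The Srsf6 stretch lies in an exon of 268 bases of Srsf6-201 that is absent from Srsf6-203, with its stop 534 bases upstream of the last junction.
Srsf3-201, chr17:29039454-29039487, plus strand: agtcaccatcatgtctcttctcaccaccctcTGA
Srsf6-201, chr2:162932937-162932966, plus strand: gccatgacgacagcagccttttgccatTAG

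The next stretches show the ends of introns that the retained-intron transcripts keep, with the GT that opens and the AG that closes each intron in capitals, 6 bases of exon and 24 bases of intron. Srsf5-212 keeps a whole intron of 1229 bases and Srsf7-207 a whole intron of 874 bases. Srsf11-213 starts inside an intron of 3774 bases and holds its last 472 bases. The last sequence is the first exon, of 81 bases, of Srsf2-205, a transcript that the annotation classes as processed, with no coding frame.
Srsf5-212, intron start, chr12:80947860-80947889, plus strand: tggcagGTttgttgaaatacagttttgaga
Srsf5-212, intron end, chr12:80949071-80949100, plus strand: ttaacataattgtcttgtgttaAGgatctc
Srsf7-207, intron start, chr17:80205238-80205267, minus strand: aagcagGTatttaattaatgaaggaatggt
Srsf7-207, intron end, chr17:80204382-80204411, minus strand: gtatttttctaacttaaaaaatAGgtcacg
Srsf11-213, intron end, chr3:158022945-158022974, minus strand: tcatgcaaggatgtttctctgcAGgagtta
Srsf2-205, first exon, chr11:116851491-116851571, minus strand: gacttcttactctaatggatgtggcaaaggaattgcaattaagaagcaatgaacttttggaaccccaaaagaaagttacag

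G3bp1 itself did not separate the groups. Its scaled CPM (counts relative to library totals adjusted with trimmed-mean factors) was 44.1, 34.8 and 40.5 in control 1, 2 and 3, and 44.0, 30.0 and 31.5 in knockout-labelled 1, 2 and 3. The first knockout-labelled library thus stood as high as the highest control, and the log2 difference was -0.18 (95% interval -0.67 to 0.31, edgeR quasi-likelihood test, adjusted p = 0.909). The sources used here do not name the exon that Cre removes, and liver cells without active Cre keep the gene. How far either bears on these counts was not tested, and the libraries are called knockout-labelled throughout. Knockout-labelled 2 and 3 also stood apart from the other 4 libraries in measures of the library as a whole: 36.5% and 38.0% of transcripts were detected against 30.4% to 31.4%, mitochondrial genes took 9.19% and 10.2% of the counts against 7.22% to 7.64%, and genes of up to 800 bases had a median log2 deviation of -0.34 and -0.62 against 0.17 to 0.33. The libraries did not group by label in the correlation of log2 scaled CPM over all genes tested. Control 2 correlated most with knockout-labelled 3 and 2 (0.9641 and 0.9612), beside 0.9504 and 0.9601 with control 1 and 3. Knockout-labelled 1 correlated most with control 3 and 1 (0.9625 and 0.9606) and least with knockout-labelled 2 and 3 (0.9344 and 0.928). The part of these differences in the results below was not tested. Transcripts under 300 bases had a median effective length of 14.5 bases in knockout-labelled 1 and of 47.1 to 51.4 bases in the other libraries. For long transcripts the median of length minus effective length was 250 bases in knockout-labelled 1 and 241.9 to 262.3 in the others. TPM are computed from effective lengths, and the part of this difference in the transcript values and zeros of knockout-labelled 1 was not tested. No gene of 12497 tested had an adjusted p under 0.05 (0%), the smallest being 0.845, and 568 (4.55%) had an unadjusted p under 0.05.

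Of the 31 genes, 30 were tested, and Srsf12 was not, since its mean over the libraries was 0.018 TPM (a level per length of transcript). Scaled counts were higher on average in the knockout-labelled livers for 27 of the 30, among them 17 of 20 hnRNP genes and 10 of 10 Srsf genes. The median log2 difference was 0.19 for the 30 genes, 0.19 for the hnRNP genes and 0.23 for the Srsf genes, beside 0.01 over all genes tested, of which 51.6% had a difference above 0. No single hnRNP or Srsf gene passed the test in edgeR, DESeq2 or limma, and none had an unadjusted p under 0.05 in edgeR with all 6 libraries. Other settings gave more unadjusted p-values under 0.05 among all genes too: 9 of the 30 genes beside 12.1% of all genes with counts scaled by library totals alone, 10 beside 20.7% with limma sample weights, 5 beside 8.45% without control 1 and 6 beside 15.8% without knockout-labelled 1. The differences ran from -0.12 for Hnrnpc, which binds uridine tracts in nascent RNA, to 0.52 for Hnrnpdl, a relative of the mRNA-decay factor Hnrnpd. Every 95% interval held 0, as the plot of differences by gene shows.

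**Figure D1:**
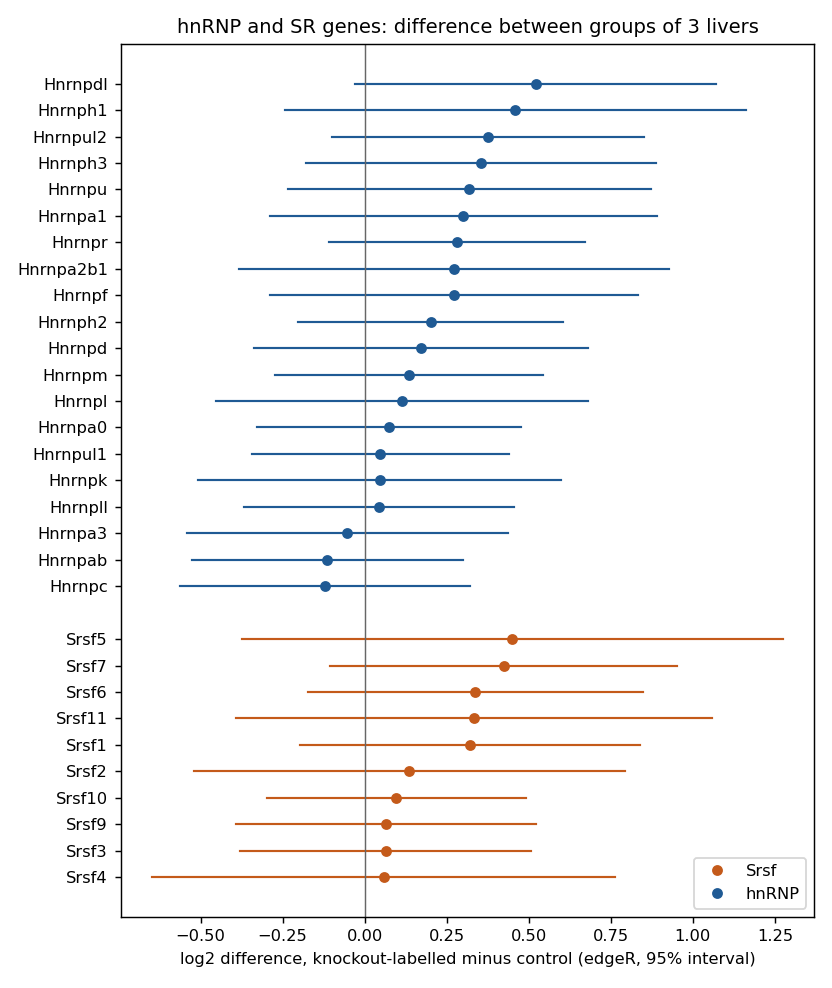
Log2 difference of scaled counts (points, edgeR) with its 95% interval (lines) for the 20 hnRNP and 10 tested Srsf genes, 3 knockout-labelled livers against 3 control livers. The points lie to the right of 0 for 27 of 30 genes, and each interval spans 0.

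The higher counts were not shared by the 3 knockout-labelled libraries. The median log2 deviation of the 30 genes from their own means was -0.04, -0.13 and -0.12 in control 1, 2 and 3, -0.10 in knockout-labelled 1, 0.21 in knockout-labelled 2 and 0.18 in knockout-labelled 3. Knockout-labelled 1 was at or below the highest control for 26 of the 30 genes, which is 86.7% beside 81.5% of all genes tested. It was the highest of the 6 libraries for none of the 30, beside 12.4% of all genes. Knockout-labelled 2 exceeded every control for 19 genes and knockout-labelled 3 for 16, where 26.5% and 28.6% of all genes tested did so. Without knockout-labelled 1, 28 genes had a difference above 0 and the median was 0.25. Without knockout-labelled 2 these were 26 and 0.14, and without knockout-labelled 3 they were 25 and 0.16. With an offset for the way counts varied with the length and GC content of transcripts in each library, 21 genes had a difference above 0, with a median of 0.17.

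**Figure D2:**
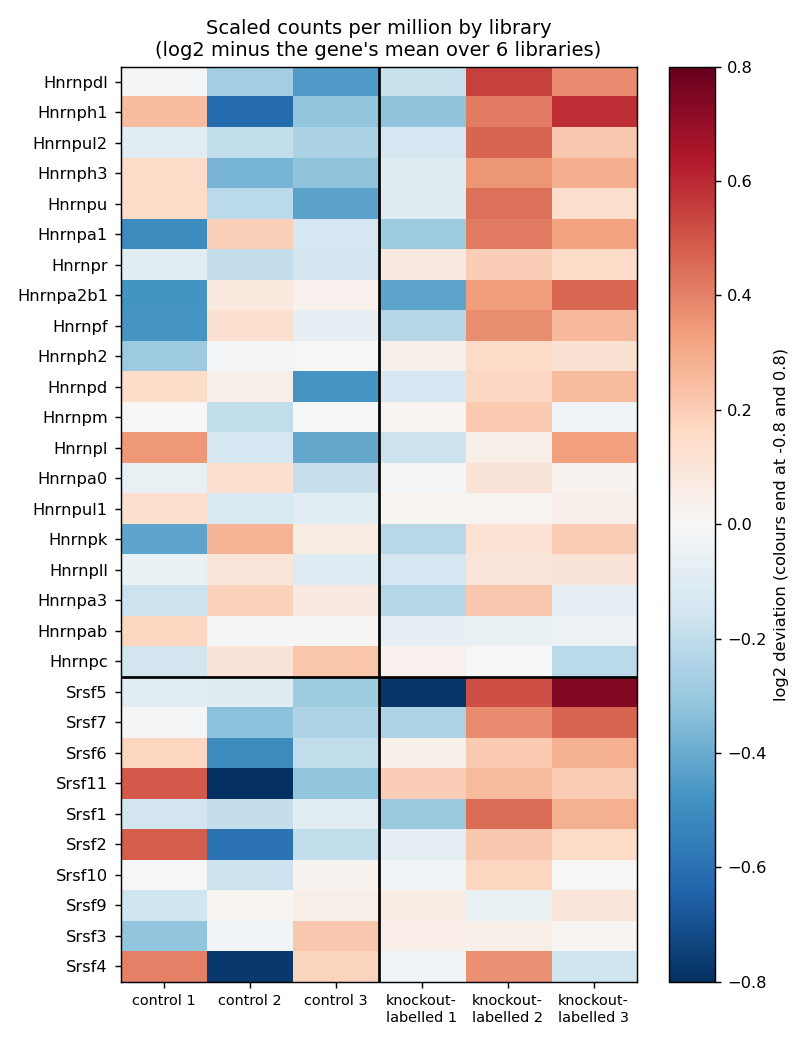
Log2 scaled CPM of each of the 30 tested genes minus its mean over the 6 libraries, hnRNP genes above the horizontal line and Srsf genes below it, control libraries left of the vertical line. Columns of knockout-labelled 2 and 3 are mostly red (median 0.21 and 0.18) and that of knockout-labelled 1 mostly blue (median -0.10).

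On the TPM scale the 20 hnRNP genes together had 414, 419 and 478 TPM in the controls and 496.5, 687 and 698 TPM in knockout-labelled 1, 2 and 3. The Srsf genes together had 237, 159 and 216 TPM in the controls against 241, 328 and 365 TPM in the knockout-labelled libraries. In scaled CPM, where library totals are adjusted for differences in composition, the order of knockout-labelled 1 was another: the hnRNP genes summed to 1082, 1173 and 1098 in the controls and to 1036, 1384 and 1324 in the knockout-labelled libraries. Knockout-labelled 1 thus lay above every control on the TPM scale and below every control in scaled CPM. The Srsf genes summed to 564, 397 and 456 CPM in the controls against 444, 633.5 and 644 CPM in the knockout-labelled libraries.

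Among the abundant hnRNP genes, Hnrnpa2b1, which encodes a core protein of hnRNP particles with roles in splicing and RNA sorting, had the highest level of the family at a mean of 107 TPM (chr6:51460932-51469894, minus strand, GRCm38). Its scaled CPM was 114, 168 and 163 in the controls against 119, 200.7 and 219 in the knockout-labelled livers, a log2 difference of 0.27 (SE 0.29). Knockout-labelled 1 lay near the lowest control and the other 2 lay above every control. Hnrnpa3, of the same A/B group, had 119, 151 and 140.1 CPM in the controls against 114, 155 and 127 in the knockout-labelled livers, with a log2 difference of -0.05 (SE 0.21). Hnrnpk, which binds cytidine-rich RNA through KH domains, had 82.5, 133 and 115 CPM against 94.7, 119.5 and 127, with a log2 difference of 0.05 (SE 0.24). The groups overlapped for both of them. Hnrnpf, which binds runs of guanosine, had 60.5, 91.7 and 80.0 CPM in the controls against 71.6, 109 and 100.1 in the knockout-labelled livers, with a log2 difference of 0.27 (SE 0.25). Mean levels of the other hnRNP genes ran from 4.72 TPM for Hnrnpll, a CA-repeat binding paralog of Hnrnpl, to 40.9 TPM for Hnrnpab. Neighbours in the order of levels mostly lay within each other's spread: Hnrnpa3 had 43.4 ± 8.29 TPM (SD, n = 3) in the controls and Hnrnpk 39.6 ± 7.12.

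The groups did not overlap for 3 hnRNP genes and for no Srsf gene. Every knockout-labelled library lay above every control for Hnrnpr and Hnrnph2, 2 of 30 genes, beside 4.79% of all genes tested. Hnrnpr (chr4:136310942-136359447, plus strand), a relative of the mRNA-binding protein Syncrip, had 15.0, 13.9 and 14.3 CPM in the controls against 16.7, 18.2 and 17.6 in the knockout-labelled livers (log2 difference 0.28, SE 0.17, adjusted p = 0.845). Hnrnph2 (chrX:134601179-134607060, plus strand), of the group that binds guanosine runs, had 26.7, 32.4 and 32.5 CPM against 33.6, 36.2 and 35.5 (log2 difference 0.20, SE 0.18). The gap between the highest control and the lowest knockout-labelled liver was small beside the spread within the groups for Hnrnph2, and wider than it for Hnrnpr. Every knockout-labelled library lay below every control for Hnrnpab alone, 1 of 30 genes beside 4.55% of all genes, with 109.6, 96.0 and 97.9 CPM against 93.0, 93.1 and 94.4 (log2 difference -0.11, SE 0.18). With counts scaled by library totals alone, the difference of Hnrnpab turned to 0.15, and the median over all genes was then 0.27.

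The hnRNP genes with the smallest p-values were Hnrnpdl, Hnrnpul2, Hnrnpr and Hnrnph3. Hnrnpdl had 38.9, 32.5 and 28.7 CPM in the controls against 34.7, 57.6 and 51.2 in the knockout-labelled livers (log2 difference 0.52, SE 0.24, edgeR adjusted p = 0.845). Knockout-labelled 1 lay among the controls and the other 2 well above them. Hnrnpul2, a relative of the scaffold-attachment protein Hnrnpu, had 38.5, 35.6 and 34.3 CPM against 37.0, 56.3 and 47.4 (log2 difference 0.38, SE 0.21). Hnrnph3, also of the guanosine-run group, had 13.3, 9.25 and 9.575 CPM against 11.2, 15.3 and 14.6 (log2 difference 0.35, SE 0.23). The remaining hnRNP genes differed by 0.04 for Hnrnpll to 0.46 for Hnrnph1, with Hnrnpc alone below 0.

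Of the Srsf genes, Srsf2, which activates splicing at exonic enhancers and is used as a marker of nuclear speckles, had the highest level at a mean of 78.5 TPM (chr11:116849901-116853094, minus strand), followed by Srsf5 at 76.0 TPM (chr12:80945504-80950507, plus strand). Srsf2 had 132, 62.6 and 82.4 CPM in the controls against 89.5, 109.5 and 105 in the knockout-labelled livers, with a log2 difference of 0.14 (SE 0.29) that turned to -0.08 without control 2. Its controls spread wider than the knockout-labelled livers and enclosed them. Srsf5, whose product cooperates with other SR proteins at enhancers, had 128, 127 and 112 CPM in the controls against 79.4, 195 and 228 in the knockout-labelled livers (log2 difference 0.45, SE 0.36, adjusted p = 0.857). The knockout-labelled group held the lowest library and the 2 highest ones, and the difference was 0.78 without knockout-labelled 1 and 0.16 without knockout-labelled 3.

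Srsf11 (chr3:158010473-158036639, minus strand), an SR-related splicing activator, had 74.4, 29.7 and 42.5 CPM in the controls against 60.8, 63.1 and 60.8 in the knockout-labelled livers (log2 difference 0.33, SE 0.32). Its knockout-labelled livers were nearly alike and lay below control 1, and the difference was 0.77 without control 1 and 0.07 without control 2. Srsf1, a founding member of the family, had 36.0, 34.9 and 37.4 CPM against 32.4, 54.3 and 48.6 (log2 difference 0.32, SE 0.23). Srsf7, a paralog of Srsf3 that also takes part in mRNA export, had 20.7, 16.6 and 17.6 CPM against 17.6, 27.2 and 28.8 (log2 difference 0.42, SE 0.23, adjusted p = 0.845). In both genes knockout-labelled 1 fell within or below the controls, and the other 2 lay above them. Srsf6, a regulator of alternative exons, had 70.0, 43.7 and 54.2 CPM in the controls against 64.1, 72.1 and 75.9 in the knockout-labelled livers (log2 difference 0.34, SE 0.22). The other Srsf genes, Srsf3, Srsf4, Srsf9 and Srsf10, differed by 0.06 to 0.10. The median of the Srsf genes was 0.40 without control 1 and 0.08 without control 2, the libraries with the highest and the lowest Srsf counts among the controls.

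The mix of transcripts within the genes was examined next, with transcript levels in TPM. TPM carry no trimmed-mean factors, which ran from 0.842 to 1.001 in the controls and from 1.069 to 1.139 in the knockout-labelled libraries. Hnrnpab, for example, had a mean of 36.5 TPM in the controls and 45.25 TPM in the knockout-labelled livers, with 101.2 and 93.5 in scaled CPM. Shares within a gene do not depend on these factors. The 31 genes have 280 transcripts in the files, classed by GENCODE as protein-coding, as targets of nonsense-mediated decay, as retaining an intron, or as processed transcripts. The last 3 classes held 51.3%, 38.1% and 38.7% of the summed TPM of the Srsf genes in the controls against 53.3%, 56.2% and 52.1% in the knockout-labelled livers, so that all 3 knockout-labelled livers lay above the controls, by 11.2 points on average. For the hnRNP genes the share was 42.4%, 20.2% and 24.5% against 39.5%, 29.2% and 28.9%, and the groups overlapped. Over all protein-coding genes the same classes held far less of the TPM, 10.9%, 5.52% and 8.16% in the controls against 14.0%, 6.91% and 6.47% in the knockout-labelled livers. The hnRNP share and that of all genes were both highest in control 1 and knockout-labelled 1.

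The classes did not move together within the Srsf genes. Transcripts with a retained intron held 17.2%, 14.5% and 12.5% of the Srsf TPM in the controls, 14.7% in knockout-labelled 1, 32.6% in knockout-labelled 2 and 30.5% in knockout-labelled 3. Targets of nonsense-mediated decay held 32.8%, 18.6% and 23.5% in the controls, 37.9% in knockout-labelled 1, 11.2% in knockout-labelled 2 and 8.27% in knockout-labelled 3. Knockout-labelled 1 had the highest pooled decay-target share of the 6 libraries, and knockout-labelled 2 and 3 had the lowest shares of it and the highest shares of retained introns. The pooled decay share rested largely on Srsf2-204, at 62.7, 18.8 and 35.5 TPM in the controls against 75.5, 14.3 and 10.9 TPM. Srsf1 had the same order. In Srsf3, Srsf4, Srsf6 and Srsf11 knockout-labelled 1 had the lowest decay-target share instead. For Srsf3 it was 16.6%, 11.8% and 14.9% in the controls against 7.26%, 24.05% and 22.4%. The decay-target share of the hnRNP genes stayed between 6.86% and 8.87% in all 6 libraries.

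**Figure D3:**
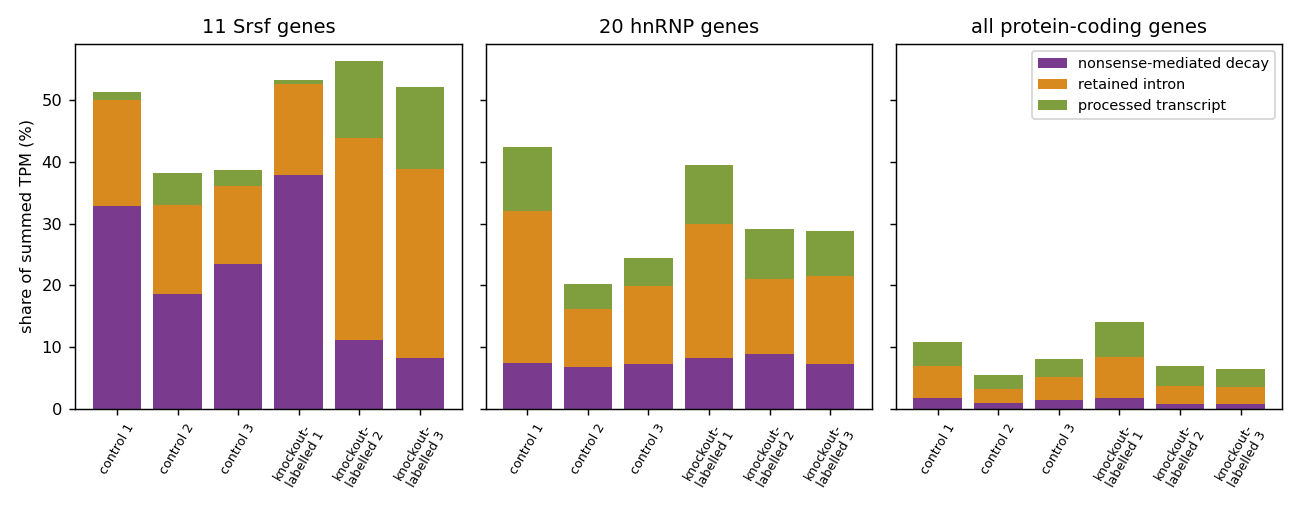
Share of the summed TPM held by transcripts annotated as nonsense-mediated decay targets, retained introns or processed transcripts, for the Srsf genes, the hnRNP genes and all protein-coding genes, one stacked bar per library. The retained-intron part of the Srsf bars is 32.6% and 30.5% in knockout-labelled 2 and 3, and 12.5% to 17.2% in the other libraries.

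By gene, 20 of the 30 had a mean share of at least 5% on these 3 classes, and 14 of the 20 had a higher mean share in the knockout-labelled livers, 7 of 11 hnRNP and 7 of 9 Srsf genes. The median difference was 5.48 points, beside 0.742 points over the 4127 protein-coding genes with a share of at least 5%, of which 52.7% were higher. Every knockout-labelled share exceeded every control share for 4 of the 20, Srsf10, Srsf11, Hnrnpd and Hnrnpu, beside 5.79% of those 4127 genes. None of the 20 had every knockout-labelled share below the controls, beside 2.13%. With 3 libraries against 3, the smallest two-sided p that an exact permutation test can give is 0.1, and these 4 genes had that value.

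Srsf11 had the largest difference. Its share was 33.4%, 23.7% and 36.6% in the controls against 77.1%, 57.1% and 64.3% in the knockout-labelled livers, a difference of 34.9 points. Nearly all of it lay on retained-intron transcripts, at 5.94, 1.56 and 4.72 TPM in the controls against 13.8, 15.3 and 17.9 TPM in the knockout-labelled livers. Srsf11-213, which starts in the intron whose end is printed above, had 5.35, 0.987 and 3.46 TPM in the controls against 13.3, 7.62 and 7.53 TPM in the knockout-labelled livers. It lay above the controls in every knockout-labelled library, but its edgeR log2 difference of 1.23 had an SE of 0.66 and an adjusted p of 0.999. In knockout-labelled 1 the coding transcript Srsf11-202 was listed at 0, against 4.56 to 10.9 TPM in the other libraries. The coding transcript Srsf11-204 was at 3.72 TPM there.

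Hnrnpd, whose product binds AU-rich elements and promotes mRNA decay, had a share of 25.1%, 3.11% and 25.5% in the controls against 53.5%, 40.2% and 29.4% in the knockout-labelled livers. This share was mostly on nonsense-mediated decay targets, at 3.56, 0.45 and 2.80 TPM in the controls against 8.43, 8.86 and 7.25 TPM in the knockout-labelled livers. Listed zeros entered it: the coding Hnrnpd-202 was at 0 in knockout-labelled 1, against 2.84 to 4.92 TPM in the other libraries. The decay target Hnrnpd-208 was at 0 in control 2, and its edgeR log2 difference of 1.65 had an SE of 1.44. Hnrnpm, a splicing regulator that binds GU-rich RNA, differed in the other direction, with shares of 87.4%, 55.0% and 71.4% in the controls against 84.7%, 38.1% and 28.9% in the knockout-labelled livers. Here 1 short retained-intron transcript of 591 bases, Hnrnpm-213, had 32.4, 10.2 and 24.4 TPM in the controls against 39.2, 9.10 and 4.71 TPM in the knockout-labelled livers, and the groups overlapped. Hnrnpm also shares exonic sequence on its strand with March2, so its counts are uncertain to that extent. In Hnrnpu the share was 76.2%, 69.4% and 71.5% in the controls against 77.9%, 83.4% and 81.4% in the knockout-labelled livers. In Srsf10 it was 3.70%, 0% and 0% against 6.54%, 16.3% and 12.9%. These Srsf10 shares rested on low levels of processed transcripts, at 0.189, 0 and 0 TPM in the controls against 0.414, 1.48 and 1.05 TPM. The 4 transcripts of Srsf10 with enough counts to be tested were all coding.

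In Srsf5, Srsf3 and Srsf7 the share exceeded every control in knockout-labelled 2 and 3 and not in knockout-labelled 1. For Srsf5 it was 39.4%, 36.0% and 30.1% in the controls, 24.5% in knockout-labelled 1, 72.6% in knockout-labelled 2 and 59.4% in knockout-labelled 3. The transcript with the intron of 1229 bases, Srsf5-212, had 13.9, 10.97 and 9.53 TPM in the controls against 6.33, 45.8 and 44.7 TPM in the knockout-labelled livers, while the coding transcript Srsf5-201 had 20.6, 23.0 and 26.4 TPM against 23.3, 17.5 and 37.9 TPM. In knockout-labelled 2 retained-intron and processed transcripts of Srsf5 held 50.2 and 25.7 TPM, and Srsf5-201 was lower there than in any other library.

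For Srsf3 the share was 33.4%, 21.4% and 23.0% in the controls against 20.0%, 48.8% and 56.8% in the knockout-labelled livers. The poison-exon transcript Srsf3-201 had 1.22, 1.08 and 1.86 TPM in the controls against 0.853, 3.07 and 2.88 TPM in the knockout-labelled livers, with the coding Srsf3-202 at 4.91, 7.21 and 9.59 TPM against 9.39, 6.54 and 5.54 TPM. For Srsf7 the share was 37.2%, 34.9% and 22.2% against 29.5%, 59.1% and 47.1%, and Srsf7-207 had 1.90, 1.12 and 0.816 TPM in the controls, was listed at 0 in knockout-labelled 1, and had 5.66 and 5.97 TPM in knockout-labelled 2 and 3. In Srsf6 the same 2 libraries were highest for a retained-intron transcript, Srsf6-204, at 1.42, 0.672 and 0.923 TPM against 0.957, 4.44 and 5.42 TPM. Its poison-exon transcript Srsf6-201 stayed between 0.543 and 2.44 TPM, with knockout-labelled 1 lowest and knockout-labelled 3 highest.

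**Figure D4:**
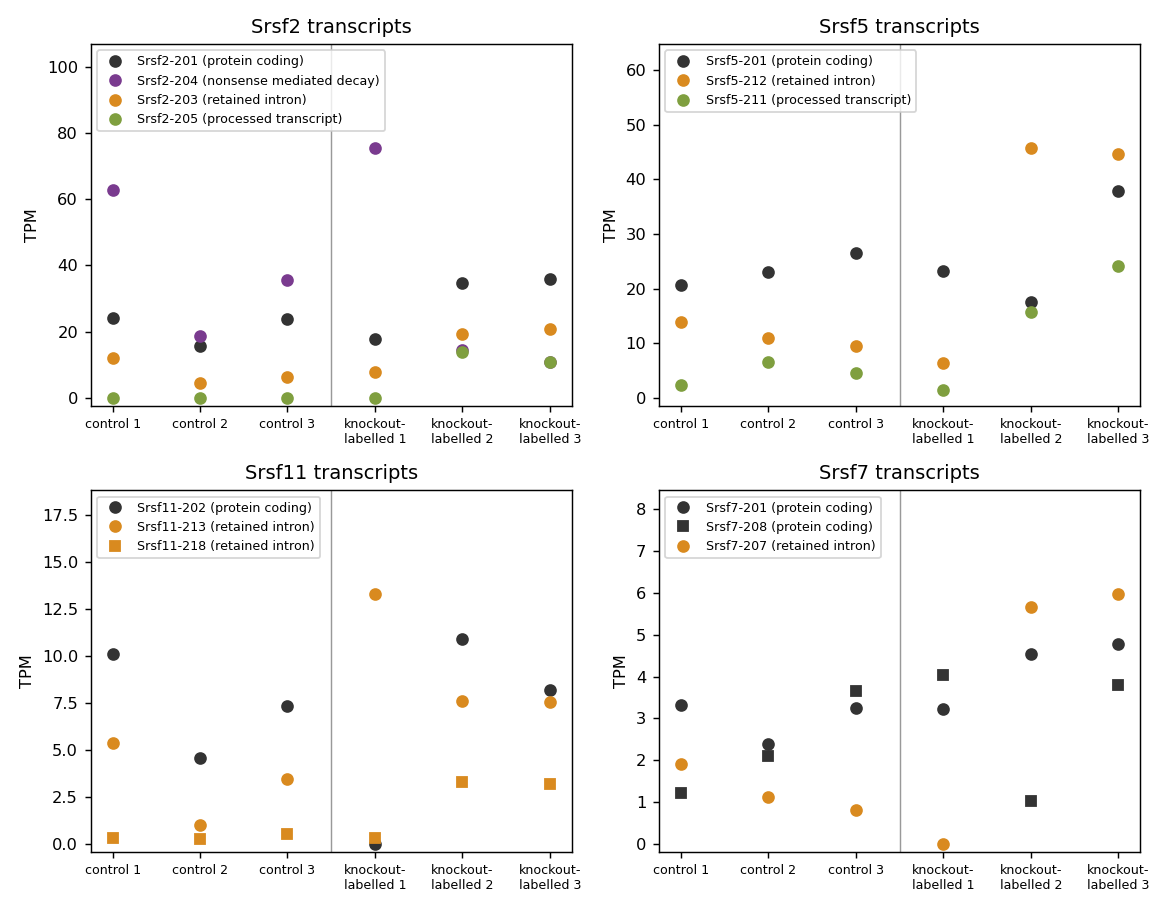
TPM of selected transcripts of Srsf2, Srsf5, Srsf11 and Srsf7 in each of the 6 libraries, coloured by transcript class. Srsf5-212 stands at 45.8 and 44.7 TPM in knockout-labelled 2 and 3 and at 6.33 to 13.9 TPM in the other libraries, and Srsf2-205 appears in knockout-labelled 2 and 3 alone.

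A test of transcript usage, which asks whether the mix of a gene's transcripts differed between the groups, called 14 of 5702 genes (0.246%) at an adjusted p under 0.05 in edgeR, and none of the 26 hnRNP and Srsf genes tested. The smallest unadjusted p among them in that test was 0.33, for Srsf1, and none was under 0.05, beside 83 of the 5702 genes. On simulated counts with the spread of these transcripts, the usage test had little power. The lack of calls therefore does not show that the mix was unchanged. Transcript by transcript, 0 of 22297 (0%) were called and 625 had an unadjusted p under 0.05. Of 128 tested transcripts of the hnRNP and Srsf genes, 85 had a log2 difference above 0 and 43 below it. The same count over all transcripts was not made, so these numbers have no background beside them. Of the 128, 2 had an unadjusted edgeR p under 0.05, Srsf11-218 and Hnrnph1-213, beside the 625 of all 22297.

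The calls of the usage test changed with the libraries entered and the transcripts that passed the filter on low counts. Without knockout-labelled 1 it called 473 of 6501 genes (7.28%), and 3 of 26 hnRNP and Srsf genes: Srsf2 (adjusted p = 0.0025), Hnrnph2 (adjusted p = 0.014) and Hnrnph1 (adjusted p = 0.0146). Srsf2-205 and Hnrnph2-202, described next, passed the filter on low counts in that fit and not with all 6 libraries. On the transcripts tested with all 6 libraries, a repeat chosen after seeing the data, leaving out knockout-labelled 1 gave 111 of 5702 genes (1.95%) and 1 of the 26, Hnrnph1 (edgeR adjusted p = 0.0384), with Srsf2 at an adjusted p of 0.248 and Hnrnph2 at 0.983. Without any other single library none of the 26 was called. The unadjusted p of Srsf2 in the usage test was 0.0456, 0.0325 and 0.0413 without control 1, 2 and 3, beside 0.957 with all 6 libraries. In Srsf2, the processed transcript Srsf2-205 was listed at 0 in all controls and in knockout-labelled 1, and had 13.7 and 10.7 TPM in knockout-labelled 2 and 3. The decay target Srsf2-204, of 620 bases, had 62.7, 18.8 and 35.5 TPM in the controls against 75.5, 14.3 and 10.9 TPM in the knockout-labelled livers, and the coding Srsf2-201 had 24.0, 15.7 and 23.7 TPM against 17.8, 34.5 and 35.8 TPM. Knockout-labelled 1 lay within the controls for Srsf2-201 and above them for Srsf2-204. In Hnrnph1, Hnrnph1-205 had 0.656, 0.555 and 0.412 TPM in the controls against 0.23, 3.55 and 4.75 TPM in the knockout-labelled livers. In Hnrnph2, the coding transcript Hnrnph2-202 was listed at 0 in the controls and in knockout-labelled 1, and had 2.48 and 4.97 TPM in the other 2 libraries.

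Exons of 14 of the 31 genes overlap those of another gene in GENCODE M21, 11 of them on the opposite strand, and the sources used here do not say whether reads were assigned by strand. Srsf2 overlaps Mettl23 and Mfsd11, Hnrnpu overlaps Cox20, and Hnrnpab overlaps Phykpl in this way. Several hnRNP genes, Hnrnpa1 among them, are known to have processed pseudogenes of near-identical sequence, and how reads were divided between them was not measured here.

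Other genes of the splicing machinery fell on both sides of 0, and none passed the test. Of 23 SR-related regulators 19 had a difference above 0, with a median of 0.36. In edgeR 3 of them had an unadjusted p under 0.05, beside 4.55% of all genes tested. The same count was 2 of 21 for the proteins of U1, U2 and U2AF, and 0 or 1 for each other splicing list. Srrm2, a scaffold of nuclear speckles, had 73.9, 35.4 and 45.1 CPM in the controls against 55.3, 113 and 119 in the knockout-labelled livers (log2 difference 0.90, SE 0.37, adjusted p = 0.845). Pnn, a speckle protein tied to the exon junction complex, had 18.3, 10.6 and 14.5 CPM against 14.3, 37.8 and 34.3 (log2 difference 0.99, SE 0.37). Knockout-labelled 1 lay within the controls for both. Of 10 tested SR protein kinases, phosphatases and importers 7 were above 0, with a median of 0.20, among them Clk2 and Clk1, kinases that phosphorylate SR proteins, with log2 differences of 0.60 and 0.42. Of 37 hnRNP-related and other RNA-binding regulators 26 were above 0, with a median of 0.18.

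Proteins of the core of the spliceosome were also counted. Of 18 Sm and Lsm proteins, which form the rings of the small nuclear ribonucleoproteins, 2 had a difference above 0 and the median was -0.32. Snrpf, 1 of the Sm ring proteins, had 15.3, 12.8 and 16.1 CPM in the controls against 12.0, 8.85 and 7.25 in the knockout-labelled livers (log2 difference -0.65, SE 0.24, adjusted p = 0.845). The median of the Sm and Lsm genes was 0.00 with the offset for length and GC content. Of 21 proteins of U1, U2 and U2AF 8 were above 0 (median -0.06), of 28 proteins of the tri-snRNP, the NTC and the helicases 17 (median 0.03), and of 17 proteins of the exon junction complex and of nonsense-mediated decay 8 (median 0.00). Smg1, the kinase that starts nonsense-mediated decay by phosphorylating Upf1, had 20.7, 14.8 and 17.4 CPM in the controls against 19.8, 30.7 and 27.2 in the knockout-labelled livers (log2 difference 0.55, SE 0.23, adjusted p = 0.845).

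**Figure D5:**
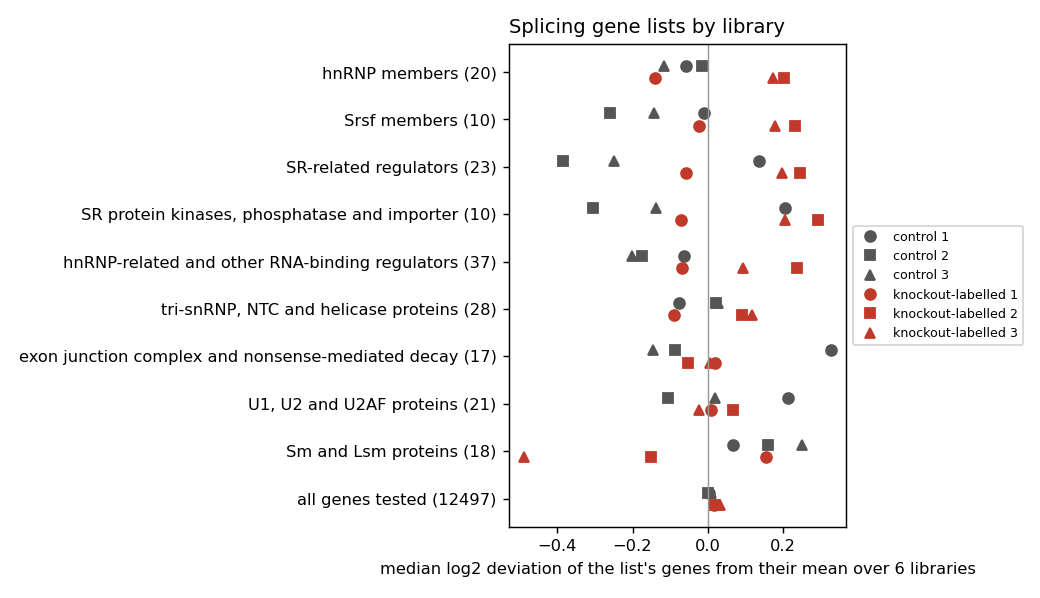
Median log2 deviation, from each gene's mean over the 6 libraries, of the genes of each list, one point per library, with the number of genes tested in brackets. For the hnRNP and Srsf genes knockout-labelled 2 and 3 lie between 0.18 and 0.23, and knockout-labelled 1 lies at or below -0.02, while for the Sm and Lsm genes knockout-labelled 2 and 3 lie at -0.15 and -0.49.

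The libraries also differed in markers of other liver cells. All 9 macrophage markers, Clec4f and Cd5l among them, were lower on average in the knockout-labelled livers (median log2 difference -0.62), and their summed CPM ran from 229 to 749 in the controls and from 234 to 326 in the knockout-labelled livers. Without control 3 their median was 0.07. All 5 red blood cell markers were lower (median -0.97), with summed CPM of 727 to 1678 against 438.5 to 1106. Of 6 hepatocyte markers 2 were above 0 (median -0.14), with summed CPM of 90460 to 118500 in the controls and 61680 to 106200 in the knockout-labelled livers, the lowest in knockout-labelled 3. Sinusoidal endothelial markers summed to 97.4 to 152 CPM against 101 to 154 and stellate-cell markers to 86.5 to 272 CPM against 129 to 222. B-cell markers summed to 12.4 to 78.6 against 6.82 to 82.9, cholangiocyte markers to 35.3 to 54.3 against 26.8 to 43.5, T and NK cell markers to 2.56 to 8.53 against 0.929 to 5.52, neutrophil markers to 3.83 to 14.2 against 3.48 to 5.65, and proliferation markers to 3.30 to 8.48 against 3.67 to 5.74. No marker of these lists passed the test, and Krt7, Cd3e, Klrb1c, Ly6g and Mpo had too few counts to be tested. The part of these cells in the values of the hnRNP and Srsf genes was not tested, and in whole liver a smaller number of cells of a type and less RNA per cell cannot be told apart.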

How the data were processed

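The submitters' processing notes name GRCm38 with RSEM 1.2.8, Bowtie2 2.2.5 and DESeq. The deposited files have the layout of Salmon output, and hold, per the file headers, estimated counts and TPM per transcript as the authors made them, for 115221 transcripts in each of 6 libraries. Of these, 113664 matched GENCODE M21 by identifier without version and 1557 did not. The unmatched held 0.216% to 0.268% of the counts. Lengths were equal for 99.22% of the matched, so that the annotation behind the files is close to M21 and not the same.

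Estimated counts were summed per gene, rounded, filtered (filterByExpr) and tested with edgeR 4.0.16 (TMM, quasi-likelihood test, two-sided, Benjamini-Hochberg over all genes, threshold 0.05), 3 livers against 3. DESeq2 1.42.0 and limma 3.58.1 (R 4.3.3) were alternatives. Transcript usage was tested with edgeR's diffSpliceDGE (Simes), and class shares are shares of deposited TPM, each with an exact permutation test. Deviations used a prior count of 2. The procedures were tested on simulated data, where the usage test had little power at the spread that the transcripts showed here. Libraries held 20899135 to 21750007 estimated counts, and the tests include both counting error and the spread between livers.

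Values in each library are given for the 4 genes of each family with the highest TPM, genes whose groups do not overlap, the 6 with the smallest p, the 6 with the largest difference in class share, and up to 4 per other list. The genes, lists and tests were chosen with earlier results of these data known. Replicate numbers were not used to pair the livers in the main tests, since the labels give no pairing.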

Additional observations from a re-analysis of the deposited data

How the results depend on the processing

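Counting each gene described in full once for each alternative fit, the direction held in 246 cases and turned in 10. Hnrnpa3 turned to 0.21 with library totals alone and to 0.016 with limma sample weights, Hnrnpab to 0.15 with library totals, and Hnrnpk to -0.032 with an offset for effective transcript length and to -0.0095 with the length and GC trend removed. Leaving out each library in turn gave -0.18 to 0.039 for Hnrnpa3, -0.13 to 0.20 for Hnrnpk and -0.078 to 0.48 for Srsf2, and, with the direction kept, 0.07 to 0.77 for Srsf11, 0.11 to 0.49 for Hnrnpa2b1, 0.12 to 0.43 for Hnrnpf, 0.17 to 0.51 for Srsf1 and 0.16 to 0.78 for Srsf5. The median of the 30 genes moved from 0.19 to 0.46 with library totals, where the median of all genes was 0.27, and to 0.33 with sample weights; 21 to 30 genes were above 0 over all settings. No hnRNP or Srsf gene was called in any of these fits. DESeq2 called 11 genes of all tested, and leaving out a library 0 to 3. Transcript usage was called for 1 gene with at least 10 counts in every library, for 1 with the replicate block, and for 0 to 473 when a library was left out, 0 to 3 of them hnRNP or Srsf genes. The count without knockout-labelled 1 was 111, with 1 hnRNP gene, on the transcripts tested with all 6 libraries, a setting added after seeing the data. The rest of the cause was not tested. The same replicate numbers correlated at 0.20, 0.28 and -0.14, beside 0.34 for control 2 with knockout-labelled 3. With so few libraries these values cannot exclude a pairing, and the labels give none. With the replicate block 27 of the 30 genes stayed above 0, with a median of 0.20. The pooled share on the 3 transcript classes differed by 6.36 points (2.33 to 12.6 when a library was left out), and by -1.31 on decay targets alone. With 3 livers a group, standard errors of 0.17 to 0.36 for the 30 genes limit the differences that could be called.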
